A study of Drosophila melanogaster with 9 samples.

Results

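Of 9 ovary RNA-seq libraries, 3 were poor in transcripts of the chorion, the outer layer of the insect eggshell, and these were compared with the other 6 over all genes other than the chorion genes themselves. Raw counts of the 9 genes Cp7Fa, Cp7Fb, Cp7Fc, Cp15, Cp16, Cp18, Cp19, Cp36 and Cp38 were summed in each library and divided by that library's total count. Libraries with a share below 1.5% are called chorion-poor here and the others chorion-rich. The chorion-poor libraries were null heterozygote replicates 1 and 3 and NES heterozygote replicate 1.

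The libraries came from ovaries of 3-day-old Drosophila melanogaster females kept at 25 °C, with 10 females per sample and 3 libraries for each of 3 genotypes. The labels write the genotypes as w[1118]moe[G0415] for the null heterozygote, w[1118]/moe[NES] for the moe[NES] heterozygote, here the NES heterozygote, and moe[G0415]/moe[NES] for the mutant. The gene Moe encodes Moesin, which ties the actin cortex to the cell membrane, and the study asked whether heat shock genes need it. The pooled females behind one library hide differences between animals, and no label says whether replicates came from separate crosses. Where tests are given, the spread behind them is that among the samples at hand and may be technical.

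Genotype and chorion class are partly confounded. Chorion-poor libraries made up 2 of 3 null heterozygote libraries, 1 of 3 NES heterozygote libraries and 0 of 3 mutant libraries. The classes were set by measured counts, so the values below are a description of these 9 libraries and carry no test; only the comparisons of genotypes at the end were tested. Ovaries were measured in bulk, so fewer cells of a type and less RNA per cell cannot be told apart.

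An ovary holds strings of egg chambers of rising age, each a germline cyst of nurse cells and an oocyte inside a layer of follicle cells. Follicle cells first deliver yolk proteins and lay down the vitelline membrane, the inner eggshell layer, and later amplify the chorion gene clusters in their DNA and secrete the chorion. Follicle cells of the mature egg chamber then take part in its release at ovulation.

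The share of chorion genes was 0.490% in null heterozygote replicate 1, 0.629% in replicate 3 and 1.44% in NES heterozygote replicate 1. The lowest chorion-rich library was mutant replicate 2, at 1.77%, and the others lay between 2.04% in null heterozygote replicate 2 and 2.66% in mutant replicate 1. The threshold thus fell between neighbours that differ by less than the chorion-poor libraries differ among themselves. Total counts were 31.8 to 43.6 M (1e6) per library, and the widest of the 95% Wilson intervals of the shares given here reached 0.00688 percentage points to each side, which covers counting error only. A principal component analysis placed null heterozygote replicates 1 and 3 at one end of the first component (46.1% of the variance; -46.15 and -44.18), followed by NES heterozygote replicate 1 at -21.95. Next came NES heterozygote replicate 3 at -1.49. The second component (17.0%) set the NES heterozygote libraries, at 23.06 to 25.90, apart from all others, at -16.81 to -6.28. Null heterozygote replicate 2 stood apart on the third component, at -35.23.

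Transcripts of the vitelline membrane and of yolk set the same 3 libraries lowest. The 8 vitelline membrane genes held 0.140% of null heterozygote replicate 1, 0.155% of replicate 3 and 0.379% of NES heterozygote replicate 1, against 0.615% to 1.28% in the chorion-rich libraries. Genes of yolk proteins and their uptake took 0.391%, 0.418% and 0.616%, against 0.762% to 1.27%. In both cases the nearest chorion-rich library was NES heterozygote replicate 3, although its chorion share was 2.15%. The ratio of vitelline membrane to chorion counts was 0.286, 0.247 and 0.264 in the chorion-poor libraries and 0.286 in NES heterozygote replicate 3. It was 0.430 to 0.480 in NES heterozygote replicate 2 and the mutant libraries, where the former had 0.449, and 0.626 in null heterozygote replicate 2.

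**Figure D1:**
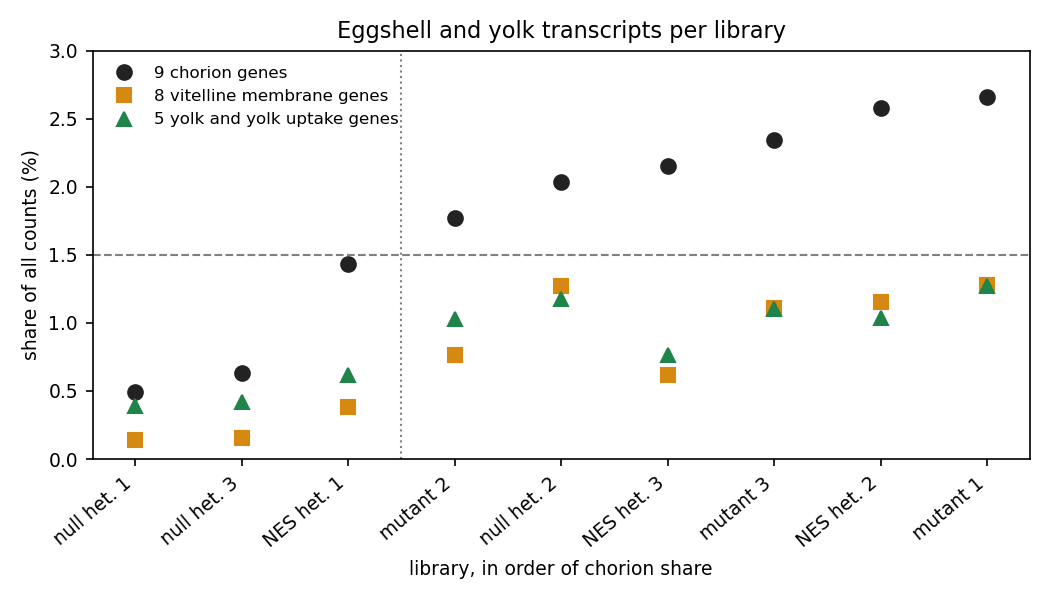
Share of all counts (%) in 9 chorion genes, 8 vitelline membrane genes and 5 yolk and yolk uptake genes, 1 point per library, with libraries in order of chorion share. The dashed line marks the 1.5% threshold and the dotted line divides the 3 chorion-poor libraries from the 6 others. Vitelline membrane shares run from 0.140% to 1.28% and depart from the order of chorion shares at null heterozygote replicate 2 and NES heterozygote replicate 3.

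Levels are given as counts per 1e6 (CPM) scaled by TMM, a method that sets libraries on one scale by the trimmed mean of their gene ratios. Differences are log2 differences, chorion-poor minus chorion-rich, from an edgeR fit with genotype as a term. Since all mutant libraries are chorion-rich, such a difference rests on the heterozygotes; mutant libraries bear on whether the classes overlap and on the estimate of spread. A gene is called lower when all 3 chorion-poor libraries lay below all 6 chorion-rich ones and the log2 difference was -1 or less (2-fold), and higher in the mirrored case. By this rule 448 of 8633 genes were lower (5.19%) and 27 were higher (0.313%). With no demand on size, 1562 genes (18.1%) lay wholly below and 1715 (19.9%) wholly above, so the small differences were spread over both directions and the large ones were nearly all lower. The median log2 difference over all genes tested was -0.02. Values of chorion-poor libraries follow the order null heterozygote replicates 1 and 3 and NES heterozygote replicate 1, values of chorion-rich libraries are given as their range, and positions are those of the BDGP6.54 annotation.

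The lower genes had a median log2 difference of -1.52, and 99 of them were at least 4-fold lower. Most were weakly expressed: 295 averaged under 10 CPM and 36 at least 100 CPM. Together they made up 0.711% of null heterozygote replicate 1, 0.808% of replicate 3 and 1.61% of NES heterozygote replicate 1, and 2.43% to 4.25% in the chorion-rich libraries. Just inside the limit was LManII, an alpha-mannosidase gene (-1.0002), and just outside was Timp, which encodes an inhibitor of matrix metalloproteinases (-0.997). For higher genes the nearest on either side were krimp (1.09) and NSD (0.95).

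The heterozygotes give separate views of the split, since the null heterozygote difference (replicates 1 and 3 minus replicate 2) and the NES heterozygote difference (replicate 1 minus replicates 2 and 3) share no library. In the null heterozygote 593 genes (6.87%) were at least 2-fold lower and 138 (1.6%) at least 2-fold higher, in log2 of CPM plus 0.5. Of the 593, 562 (94.8%) were also lower in the NES heterozygote, where 50.5% of all genes were. Of the 138, 123 (89.1%) were also higher there, where 49.4% of all genes were. Sizes differed: the NES heterozygote had 125 genes (1.45%) at least 2-fold lower and 8 (0.0927%) at least 2-fold higher. The 93 genes at least 2-fold lower in both made up 15.7% of the null heterozygote list and 74.4% of the NES heterozygote list. Over the 448 lower genes the median was -1.50 in the null and -0.76 in the NES heterozygote, and over the 27 higher genes it was 1.52 and 0.70. The call rule fixes these signs in both heterozygotes, and its 2-fold limit is set on a fit to the same values.

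**Figure D2:**
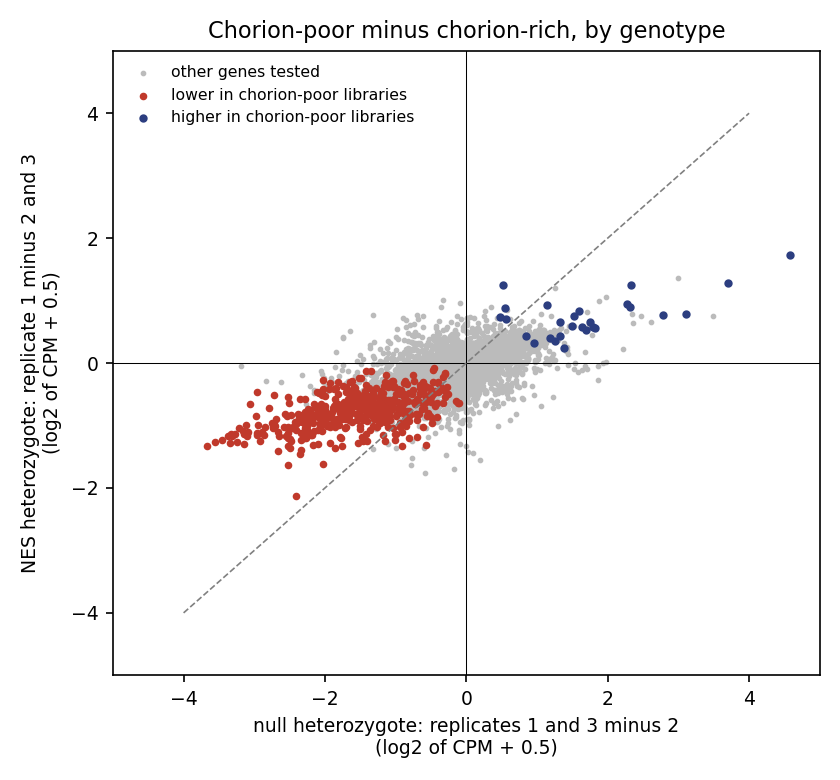
Difference between chorion-poor and chorion-rich libraries within the null heterozygote (x axis) and within the NES heterozygote (y axis), both as log2 of CPM plus 0.5, 1 point per gene tested other than the 9 chorion genes. Red and blue points are the 448 lower and 27 higher genes, whose signs are set by the call rule, and the dashed line marks equal differences. Most coloured points lie nearer the x axis, with medians of -1.50 against -0.76 for lower genes and 1.52 against 0.70 for higher ones.

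The same genes also ordered the libraries within the chorion-rich class. Mutant replicate 2, with the lowest chorion share of the mutant libraries, was the lowest of the 3 for 377 of the 448 lower genes (84.2%), compared with 36.2% of all genes tested. NES heterozygote replicate 3, with a smaller chorion share than replicate 2, lay below it for 376 of them (83.9%, against 49.8%). Of the 27 higher genes, 18 (66.7%) were highest in mutant replicate 2, against 41.6% of all genes, and 19 (70.4%) were above replicate 2 in NES heterozygote replicate 3, against 50.2%. A demand that all chorion-rich libraries lie above the chorion-poor ones does not favour this order.

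The vitelline membrane genes differed more than the chorion genes that chose the libraries. All 8 tested were lower, with a median log2 difference of -2.26 (range -2.55 to -1.90), and 448 of 8633 genes (5.19%) is the background for that count. Vm32E, which encodes a vitelline membrane protein (FBgn0014076, chromosome 2L, 11171167 to 11171665, minus strand), was at 48.2, 63.2 and 168 CPM in null heterozygote replicates 1 and 3 and NES heterozygote replicate 1 and at 288 to 708 CPM (median 551) in the chorion-rich libraries. The classes did not overlap, with means of 93.1 ± 65.1 CPM (SD, n = 3) and 509 ± 164 CPM (SD, n = 6) and a fitted difference of 5.84-fold. Its log2 difference was -3.67 within the null heterozygote and -1.33 within the NES heterozygote. A wide gap between the heterozygotes of this kind was the rule for eggshell genes, and the fitted value of Vm32E lies between the pair. Without null heterozygote replicate 2 the fit rests on the NES heterozygote alone (-1.43 for Vm32E), and without NES heterozygote replicate 1 on the null heterozygote alone (-3.66). The sizes given below depend on these 2 libraries in the same way. Within-genotype differences of genes near or under 1 CPM are held down by the 0.5 CPM added to each value.

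Vm34Ca, another vitelline membrane gene (FBgn0003983, chromosome 2L, 13411141 to 13411631, minus strand), was far more abundant, at 339.8, 357 and 955 CPM against 1618 to 3532 CPM (median 3113). Its log2 difference was -2.35, which is 5.11-fold lower. Vml, which encodes a vitelline membrane-like protein (FBgn0085362, chromosome X, 2275822 to 2277781, plus strand), was at 74.5, 111 and 306 CPM against 541 to 1074 CPM (median 1002), with a log2 difference of -2.43. In each of these genes NES heterozygote replicate 1 was the highest chorion-poor library, and NES heterozygote replicate 3 the lowest chorion-rich one. Palisade, the product of psd (FBgn0086265, chromosome 2L, 5963087 to 5964951, minus strand), is needed to form the vitelline membrane, and psd was at 29.8, 35.7 and 96.2 CPM against 153 to 342 CPM (median 294). The most abundant of the group, Vm26Aa, was 4.45-fold lower (log2 difference -2.15), and Fcp3C had the smallest difference (-1.90).

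Genes with a part in patterning the embryo through the eggshell were also mostly lower. All 7 genes of this list lay below the chorion-rich libraries (18.1% of all genes tested did) and 5 were at least 2-fold lower (background 5.19%), with a median of -1.70. The serine protease gene ndl, which acts at the head of the cascade that sets the ventral side of the embryo, was at 35.5, 54.04 and 119 CPM against 207 to 440.2 CPM (median 362), a log2 difference of -2.26. Pipe, a sulfotransferase of ventral follicle cells, needs the product of wbl, and their genes differed by -1.70 and -2.18. Both were lowest in null heterozygote replicate 1. The terminal patterning gene tsl, expressed in follicle cells at the egg poles, was at 0.685, 1.06 and 1.83 CPM against 3.52 to 6.33 CPM (median 4.34), a log2 difference of -1.98. The remaining members, fs(1)M3, fs(1)N and clos, whose products are held in the vitelline membrane and also act in terminal patterning, had smaller differences of -1.02, -0.85 and -0.65.

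Other eggshell genes were split. Of 9 tested, 4 were lower (background 5.19%) and the other 5 overlapped between classes, with a median of -1.15. The gene dec, which encodes eggshell matrix proteins cut from a common precursor, was at 383, 509.7 and 1237 CPM against 2147 to 4442 CPM (median 3696), a log2 difference of -2.25. This is as large a difference as in the vitelline membrane genes. Femcoat, needed for chorion assembly, differed by -1.71, and Cad99C, a cadherin of follicle cell microvilli, by -1.38. The pair yellow-g and yellow-g2 overlapped: yellow-g was at 129, 121 and 349 CPM against 328 to 669.7 CPM (median 499), with NES heterozygote replicate 1 above NES heterozygote replicate 3. Pxt, a cyclooxygenase-like peroxidase gene, was at 1239, 1222 and 1329 CPM against 1269 to 1367 CPM (median 1293) and differed by -0.03.

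The 9 chorion genes are given as a description, since their sum chose the libraries. Their median log2 difference was -1.51, and 8 of 9 did not overlap between classes. The largest difference was that of Cp7Fb, at 126, 127 and 349.6 CPM against 389.6 to 835 CPM (median 710.01), a log2 difference of -1.74. Cp38, the most abundant and one of the chorion genes used early in chorion formation, was at 1395, 1721 and 4871 CPM against 5242 to 9094 CPM (median 8031). Cp15, a chorion gene used at the end of chorion formation, differed least (-0.82) and overlapped, at 1051, 1707 and 2750.2 CPM against 2369.98 to 5410.2 CPM (median 4252). The low end of that range was null heterozygote replicate 2, below NES heterozygote replicate 1.

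**Figure D3:**
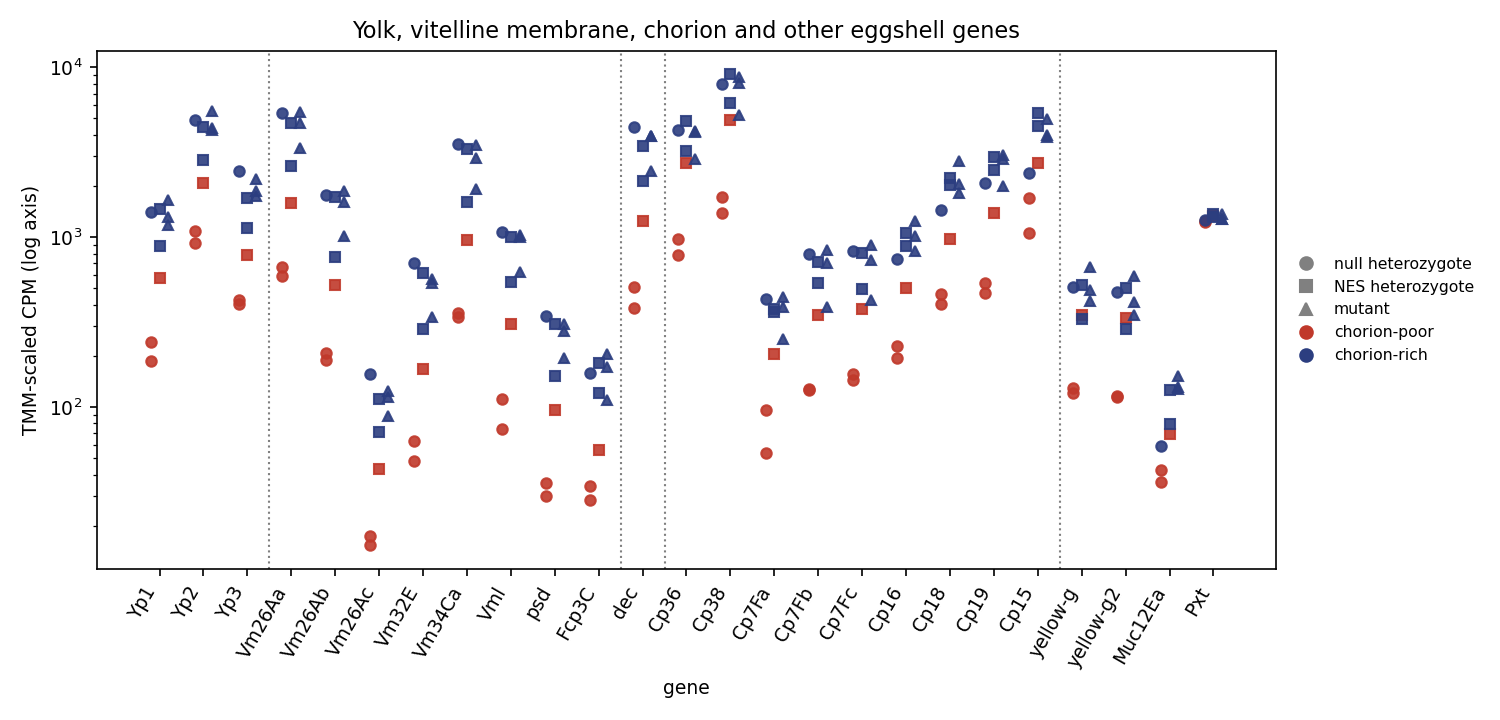
TMM-scaled CPM on a log axis for yolk protein, vitelline membrane, dec, chorion and other eggshell genes, in 4 blocks after the yolk genes, 1 point per library; shape gives the genotype and colour the chorion class. Red points lie below blue ones for every gene left of Cp15, by -2.55 (log2) for Vm32E and -1.74 for Cp7Fb, and mix with them from Cp15 on.

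Yolk protein genes were lower and the genes for yolk uptake differed little. The yolk proteins are made by the fat body and by follicle cells and are taken up by the oocyte. Yp1 (FBgn0004045, chromosome X, 10053811 to 10055498, plus strand) was at 187, 240.2 and 576 CPM against 882 to 1655 CPM (median 1360.2), a log2 difference of -1.87. For Yp2 and Yp3 the differences were -1.55 and -1.71, and in all 3 genes the classes did not overlap. The yolk receptor gene yl, expressed in the oocyte, was at 2137, 2212 and 2612 CPM against 2780.5 to 3676 CPM (median 3214) and differed by -0.38. The gene of its chaperone, boca, overlapped (-0.17). In all, 4 of 5 members lay below (background 18.1%) and 3 were lower by the 2-fold rule (background 5.19%).

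Genes of ecdysone, the insect steroid hormone made in part by follicle cells, included lower genes on both the synthesis and the response side. Of 13 tested, 8 lay below the chorion-rich libraries (background 18.1%), 6 were lower by the 2-fold rule (background 5.19%) and none lay above, with a median of -1.02. Among the cytochrome P450 genes of ecdysone synthesis, spo was at 3.74, 4.305 and 7.75 CPM against 11.7 to 24.4 CPM (median 19.3), a log2 difference of -1.89. The other enzymes shd and sad differed by -2.14 and -1.25, and dib overlapped (-1.02). Lower genes were also found among the response genes. Eip74EF, an ecdysone-induced transcription factor gene, was at 5.56, 6.03 and 10.3 CPM against 17.8 to 31.8 CPM (median 27.8), a log2 difference of -1.71. Eip78C and Hr4, which encode nuclear receptors of the same response, differed by -2.38 and -1.41. Hr3, an ecdysone-induced nuclear receptor gene that is not among the 13 counted (FBgn0000448, chromosome 2R, 10203995 to 10237348, minus strand), was at 1.002, 1.49 and 3.48 CPM against 4.96 to 14.4 CPM (median 13.5). It was among the 20 named genes of lowest difference (-2.47, 5.53-fold lower). The receptor genes EcR and usp overlapped, with differences of 0.30 and 0.21.

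Among genes of follicle cell fate and signalling, 13 of 20 lay below (background 18.1%), 4 were lower by the 2-fold rule (background 5.19%) and 1 lay above (background 19.9%). The median was -0.55. The border cells, follicle cells that migrate to the oocyte, need the transcription factor gene slbo (FBgn0005638, chromosome 2R, 24331522 to 24334307, minus strand), which was at 0.633, 0.279 and 0.927 CPM against 1.603 to 4.48 CPM (median 3.42). Its log2 difference was -2.43, and -2.41 within the null heterozygote and -1.08 within the NES heterozygote. The gene rho, which promotes release of an EGF receptor ligand in dorsal follicle cells, differed by -1.35, mirr, a homeobox gene of anterior dorsal follicle cells, by -1.20, and dpp, a BMP ligand gene, by -1.06. Egfr itself was at 19.4, 18.8 and 23.7 CPM against 32.6 to 47.1 CPM (median 40.9), a log2 difference of -0.87, below the 2-fold limit and without overlap. Stat92E, the transcription factor of the JAK/STAT pathway, lay above with a difference of 0.18.

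Of genes with a symbol, a mean of at least 1 CPM and no overlap between classes, the lowest was Osi19, of the insect-specific Osiris family (FBgn0037429, chromosome 3R, 6335362 to 6337196, plus strand), at 0.0527, 0.152 and 0.506 CPM against 1.603 to 8.62 CPM (median 3.84). Its log2 difference was -3.90, and -2.41 within the null heterozygote and -2.12 within the NES heterozygote. Next came Ace, the acetylcholinesterase gene (FBgn0000024, chromosome 3R, 13222951 to 13259517, minus strand), at 0.0264, 0.0253 and 0.197 CPM against 0.496 to 5.002 CPM (median 2.11), where null heterozygote replicate 2 held 0.552 CPM and the mutant libraries 2.38 to 5.002. Both genes are near the detection limit in chorion-poor libraries, and their sizes are uncertain. A more abundant member of the 20 was CG31869 (FBgn0051869, chromosome 2L, 10772038 to 10801109, minus strand), at 14.6, 21.7 and 46.6 CPM against 77.6 to 200.2 CPM (median 159), a log2 difference of -2.39. The uncharacterised CG12398 was at 8.73, 10.8 and 21.7 CPM against 33.5 to 96.2 CPM (median 75.3), a log2 difference of -2.36. The others not yet named were CG33946, lncRNA:CR45052, Flad2, CG15080, lncRNA:CR44707, CG3823, CG13998, nolo and CG4462, with differences between -2.88 and -2.31 and means under 10 CPM. Of these, lncRNA:CR45052 moved most with 1 library: its difference of -2.80 was -0.66 without null heterozygote replicate 2 and -6.10 without NES heterozygote replicate 1.

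Some lower genes lay side by side. Of 435 lower genes with a position in the annotation, 124 (28.5%) had another lower gene or a chorion gene within 10 kb, against 1236 of 7975 other genes tested (15.5%). Neighbouring genes are not independent members. On chromosome 2L the vitelline membrane cluster held 7 lower genes in a row between positions 5956489 and 5969761: CG13998, Vm26Ab, Vm26Ac, Vm26Aa, psd, CG13992 and Ucp4C. Vm34Ca was followed by Flad2 888 bases away and by CG16956, both lower. Beside the chorion genes on chromosome X, CG12116 (FBgn0030041, chromosome X, 8467443 to 8469012, minus strand) was at 1.45, 2.0005 and 2.87 CPM against 4.41 to 8.27 CPM (median 6.06) and lncRNA:CR43834 (FBgn0264382, chromosome X, 8484194 to 8484580, plus strand) at 0.343, 0.304 and 1.04 CPM against 1.52 to 2.31 CPM (median 1.92). These were the 2 lower genes of 20 tested within 50 kb of a chorion gene (background 5.19%). The lower share ranged from 2.5% of genes tested on chromosome 4 to 5.76% on chromosome X.

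The genes that were higher in chorion-poor libraries were few. Genes of the annotation class ncRNA made up 9 of the 27 (33.3%), 28 of the 448 lower genes (6.25%) and 2.73% of genes tested. Genes that the annotation puts in other RNA classes are left out of these counts. The leading group sat at 1 place on chromosome 3L. Ilp8, which encodes a relaxin-like peptide known as a marker of mature egg chambers (FBgn0036690, chromosome 3L, 17029812 to 17032080, minus strand), was at 84.4, 117 and 92.4 CPM in null heterozygote replicates 1 and 3 and NES heterozygote replicate 1 and at 11.03 to 79.7 CPM (median 34.2) in the chorion-rich libraries. The lowest of these was null heterozygote replicate 2 and the highest NES heterozygote replicate 3. Means were 97.9 ± 16.99 CPM (SD, n = 3) and 40.01 ± 24.5 CPM (SD, n = 6), and the fitted difference was 3.59-fold, or 1.84 on the log2 scale. Within genotypes it was 3.11 in the null and 0.78 in the NES heterozygote.

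By the same limits on symbol, mean and overlap, both genes of highest difference were noncoding RNAs beside Ilp8 on the same strand. The first, lncRNA:CR45756 (FBgn0267320, chromosome 3L, 17032055 to 17032608, minus strand), overlaps the start of Ilp8 and may share reads with it; it was at 6.59, 7.12 and 5.48 CPM against 0.0649 to 3.32 CPM (median 0.837), a log2 difference of 2.92. The second, lncRNA:CR43250 (FBgn0262895, chromosome 3L, 17033119 to 17033676, minus strand), lies 1039 bases from Ilp8 and was at 17.9, 29.5 and 20.98 CPM against 0.487 to 13.5 CPM (median 3.17), a log2 difference of 2.89. Null heterozygote replicate 2 was the lowest library for all 3 genes of this place. The differences of the noncoding pair were 1.32 and 1.39 without null heterozygote replicate 2 and 6.65 and 5.599 without NES heterozygote replicate 1.

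Of the other higher genes, Nha1, a sodium/hydrogen antiporter gene (FBgn0031865, chromosome 2L, 6860905 to 6870389, minus strand), was at 33.2, 36.8 and 30.3 CPM against 4.64 to 28.3 CPM (median 15.2), a log2 difference of 1.67. Hmr, a chromatin protein gene known for hybrid incompatibility, was at 108, 104 and 81.5 CPM against 30.5 to 62.3 CPM (median 37.9), a log2 difference of 1.19, and ana1, which encodes a centriole protein, at 149, 138 and 121 CPM against 40.2 to 97.6 CPM (median 64.2), a log2 difference of 1.18. All 3 were highest in the null heterozygote libraries of the chorion-poor class. The minor spliceosome RNA gene snRNA:U11 (2.11) lies inside Fie, which is also higher (2.05), and reads of the pair cannot be told apart where strand was not used in counting. The remaining named genes were CG14535, lncRNA:CR45631, lncRNA:CR43651, asRNA:CR44370 and CG15365, with means of a few CPM and differences between 1.31 and 2.31.

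Other genes of mature egg chambers and ovulation lay below or overlapped. Of the 13 tested, 7 lay below the chorion-rich libraries (background 18.1%), 0 by the 2-fold rule, and Ilp8 alone lay above (background 19.9%). The median was -0.28. The octopamine receptor gene Octbeta2R was at 15.6, 17.1 and 15.96 CPM against 4.51 to 16.9 CPM (median 8.35) and overlapped (1.11). Mmp2, the matrix metalloproteinase that opens the follicle at ovulation, differed by -0.58, and sim, a transcription factor gene of mature follicle cells, by -0.49. Not all genes of late egg chambers went with the chorion share, since Ilp8 went the other way. Vitelline membrane genes, used before the chorion, divided the classes in the same direction and differed more than the chorion genes. The libraries are called by their chorion share for these reasons.

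**Figure D4:**
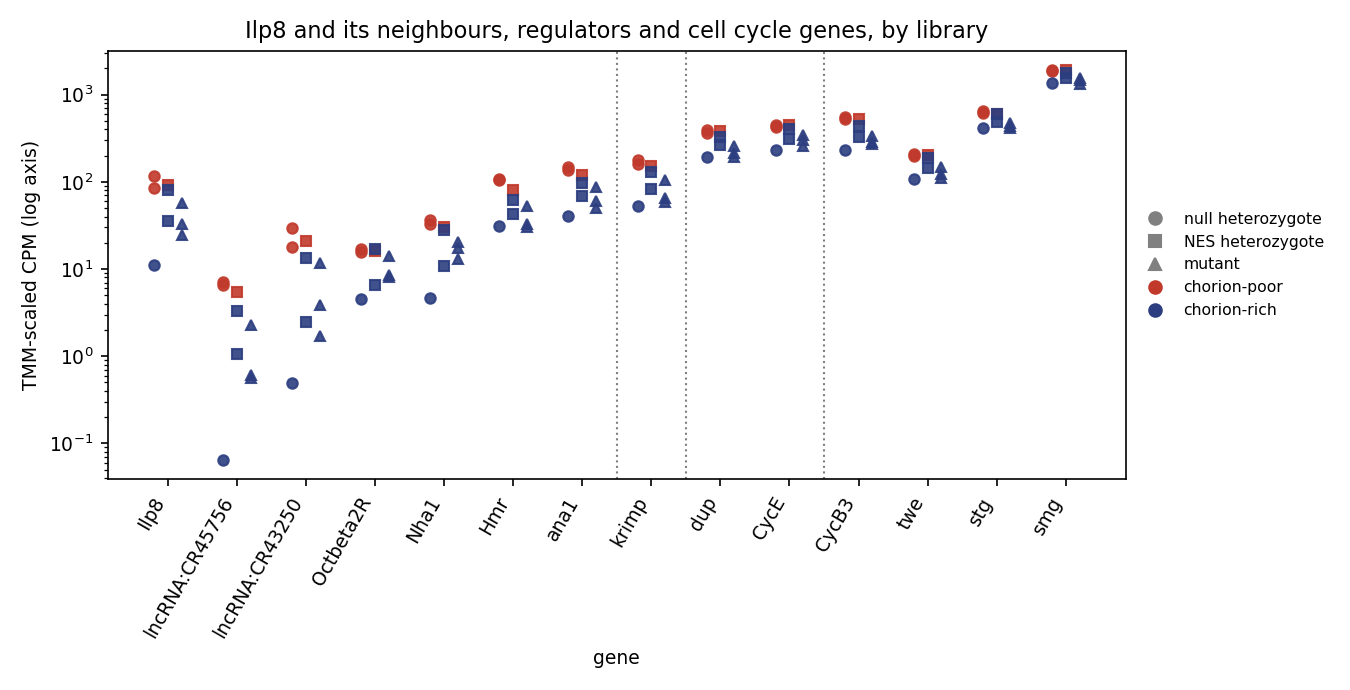
TMM-scaled CPM on a log axis for Ilp8, its noncoding neighbours, Octbeta2R and 3 further genes, then krimp, genes of DNA replication and genes of egg activation and the cell cycle, 1 point per library; shape gives the genotype and colour the chorion class. Red points lie above blue ones for all but Octbeta2R, with log2 differences from 0.34 for smg to 2.92 for lncRNA:CR45756.

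Genes of DNA replication, which also serve the amplification of chorion genes, leaned higher without reaching 2-fold. Of 19 tested, 10 lay above the chorion-rich libraries and 1 below, where 19.9% and 18.1% of all genes did, and the median was 0.34. The licensing factor gene dup was at 398, 363 and 384 CPM against 192 to 329 CPM (median 236), a log2 difference of 0.67. CycE, the cyclin of S phase entry, differed by 0.62, and RnrS, a subunit gene of ribonucleotide reductase, by 0.60. The member that lay below was fzr (-0.55), which drives the switch of follicle cells to endocycles. Genes of egg activation and of the meiotic and early embryonic cell cycles, stored in the oocyte as maternal RNA, gave 4 of 11 above (background 19.9%) and 0 below, with a median of 0.34. CycB3 was at 547, 529 and 519 CPM against 233 to 441 CPM (median 305), a log2 difference of 0.82, and the phosphatase genes twe and stg differed by 0.59 and 0.39.

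The piRNA pathway, which silences transposons in the germline, was mixed, with 6 of 18 genes above (background 19.9%), 2 below (background 18.1%) and a median of 0.16. The Tudor domain gene krimp was the 1 member higher by the 2-fold rule (background 0.313%), at 177, 159 and 154 CPM against 53.5 to 129 CPM (median 73.9), a log2 difference of 1.09. Of the members below, qin differed by -0.91 and piwi by -0.37. Maternal RNA and axis genes gave 7 of 17 below (background 18.1%) and 4 above (background 19.9%), with a median of -0.10, with exu, which acts in localisation of bicoid RNA, at -0.63 and egl, a dynein adaptor gene, at 0.42. Genes of the germarium and meiosis, the youngest part of the ovary, gave 1 of 12 below (background 18.1%) and 0 above (background 19.9%). The other 11 overlapped, as most genes tested did (median -0.31).

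Secretory pathway genes lay below for 12 of 17 members (background 18.1%) with none at 2-fold, and their median was -0.36. TRAM, which helps proteins enter the endoplasmic reticulum, was at 79.8, 75.9 and 94.98 CPM against 113 to 174 CPM (median 159), a log2 difference of -0.84, and the channel subunit Sec61alpha differed by -0.69. Of 12 lipid droplet and lipid synthesis genes, 5 lay below (background 18.1%), 1 lay above (background 19.9%) and 2 were lower by the 2-fold rule (background 5.19%): mdy, a triglyceride synthesis enzyme of the germline (-1.42), and ACC, which starts fatty acid synthesis (-1.18). Genes of actin and nurse cell dumping gave 4 of 12 below (background 18.1%) and 2 above (background 19.9%), with a median of -0.16. Moe, a member of that list, overlapped: null heterozygote libraries held 356, 439 and 368 CPM, NES heterozygote libraries 619, 769 and 692 and mutant libraries 403, 385 and 439.9, and the chorion-poor libraries were the lower ones within each heterozygote. Of cytosolic ribosomal protein genes 18 of 76 lay below, with a median of -0.18, and of oxidative phosphorylation genes 25 of 56, with a median of -0.19, where 18.1% of all genes lay below.

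**Figure D5:**
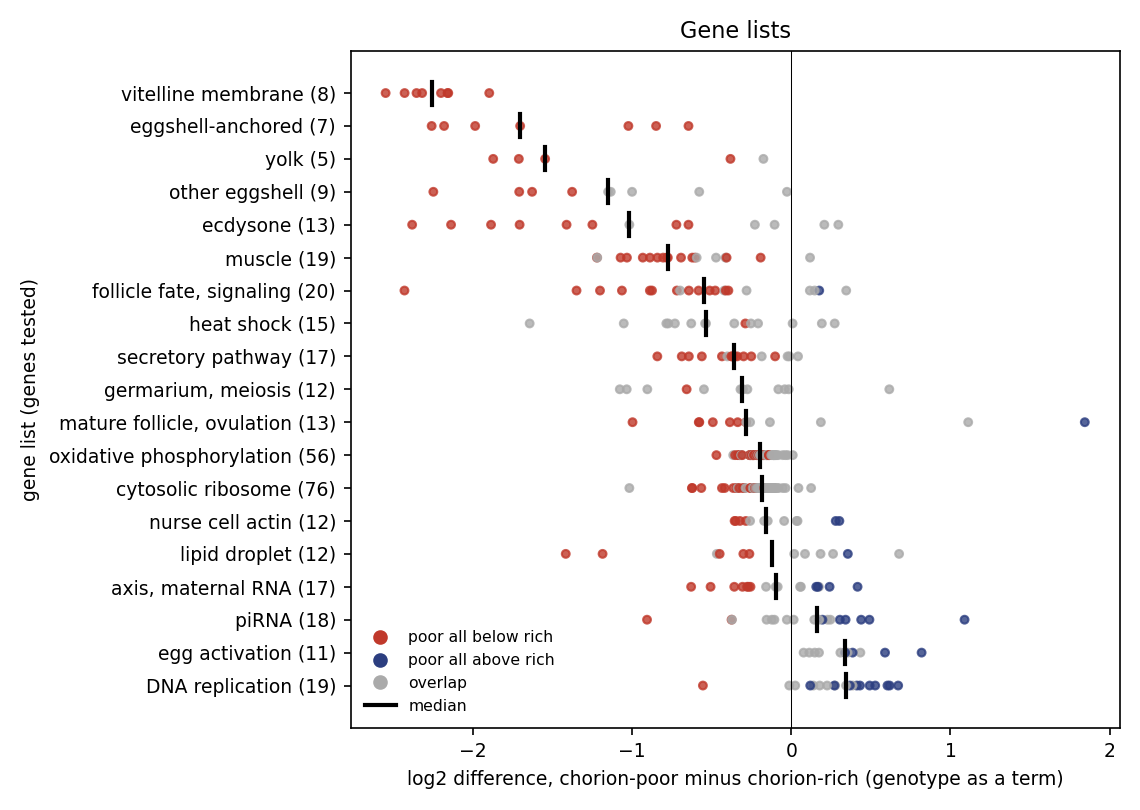
Log2 difference, chorion-poor minus chorion-rich with genotype as a term, of each tested member of 19 gene lists, in order of the list median (black bar). Red members lie wholly below and blue members wholly above the chorion-rich libraries and grey ones overlap; medians run from -2.26 for vitelline membrane genes to 0.34 for DNA replication genes.

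Heat shock genes, the subject of the study, overlapped between the classes for 14 of 15 members tested, and the 1 below was Hsp83, a chaperone gene (-0.29). Of all genes tested, 18.1% lay below and 19.9% above, so most genes overlapped. The list median was -0.54, but -0.07 within the null heterozygote and -0.64 within the NES heterozygote, and it was 0.05 without genotype as a term. Hsp23, a small heat shock protein gene, was at 27.8, 28.2 and 20.6 CPM against 12.6 to 81.9 CPM (median 24.95), a log2 difference of -1.05. Counts of the near-identical Hsp70 copies are uncertain.

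Markers of muscle, which sheathes the ovary, moved with the split. Of 19 tested, 14 lay below (background 18.1%), 3 were lower by the 2-fold rule (background 5.19%) and the median was -0.77. The summed level of the list was 658 to 671 CPM in chorion-poor and 746 to 968 CPM in chorion-rich libraries. Its median differed by -0.73 within the null and -0.65 within the NES heterozygote, a closer pair of values than the -3.28 and -1.22 of the vitelline membrane list. Mlp60A was at 2.93, 3.19 and 2.53 CPM against 3.304 to 9.89 CPM (median 6.103), a log2 difference of -1.22, and the muscle myosin gene Mhc differed by -0.84. The part of muscle in the lower genes was not tested.

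Markers of other tissues were low or overlapped, apart from srp. Of 7 hemocyte markers tested, 1 was lower (background 5.19%), the GATA factor gene srp, by -1.19, and the list summed to 539 to 665 CPM in chorion-poor and 655 to 831 CPM in chorion-rich libraries. The hemocyte gene Hml stayed under 1 CPM in all libraries. Fat body markers summed to 30.2 to 39.9 CPM and 19.6 to 67.0 CPM, with Lsp1alpha at 0 counts in all libraries. All 5 tested members overlapped, where 18.1% of all genes lay below and 19.9% above. Neuron markers summed to 3.15 to 4.18 and 3.15 to 4.90 CPM. Spermatheca markers had no member tested and at most 0.146 CPM, with Send1 at 0 counts in all libraries. Gut markers had 1 member tested, alphaTry, which was absent from 6 libraries, and reached 18.0 CPM in mutant replicate 3. The part of hemocytes in the lower genes was not tested.

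Genotypes were compared by edgeR's quasi-likelihood test over all 9 libraries (two-sided, Benjamini-Hochberg adjusted p below 0.05). The mutant differed from the null heterozygote in 108 genes (1.25%), from the NES heterozygote in 84 (0.973%), and the heterozygotes from each other in 72 (0.834%). Of the 448 genes lower in chorion-poor libraries, 0 were called in any of these comparisons. At an unadjusted edgeR p under 0.05 there were 61, 13 and 14 of them, where 16.9%, 11.4% and 9.53% of all genes tested passed. DESeq2 called 15, 3 and 1 of them, against 6.38%, 4% and 3.94% of all genes tested. Being chosen by a difference among replicates of a heterozygote, these genes have a wide spread by construction, which bears on those counts.

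Leaving out 1 library, null heterozygote replicate 2, changed that result, while 0 of the 448 were called by edgeR in any of these comparisons with each of the other 8 left out in turn. Without it, the only chorion-rich library of its genotype, the mutant and the null heterozygote differed in 3670 genes (41.6%), and 355 of the 448 lower genes (79.2%) were among them, all higher in the mutant. That direction follows from how the genes were chosen, and the count is not independent of it, since null heterozygote replicates 1 and 3 had to lie below every mutant library. The heterozygotes then differed in 732 genes (8.29%), with 184 of the 448, all higher in the NES heterozygote, and the mutant and NES heterozygote in 259 (2.93%), with 5. With only the 6 chorion-rich libraries, where the null heterozygote has 1 library that is assumed to vary like the others, the counts were 19 (0.206%), 61 (0.662%) and 19 (0.206%) of 9215 genes. None of the 448 was called there by edgeR, and 19, 35 and 51 had an unadjusted p under 0.05, against 9.21%, 12.4% and 14.9% of all genes tested. DESeq2 was not run on those 6. With the chorion share as a covariate and all 9 libraries, 40, 88 and 173 of the 448 were called between mutant and null heterozygote, mutant and NES heterozygote, and the heterozygotes, against 9.73%, 17.3% and 32% of all genes tested. Of the 40, 2 were higher in the mutant, all 88 were higher in the mutant, and 0 of the 173 were higher in the NES heterozygote. In the first comparison most calls, and in the last all, thus go the opposite way to those without null heterozygote replicate 2. The covariate is the share that set the classes, and the 448 genes were chosen by those classes. These counts and directions are thus not independent of the choice, and no result on genotype is read from them. For Vm32E, the mutant minus null heterozygote log2 fold change was 0.81 (SE 0.95, edgeR adjusted p = 0.607) over all 9 libraries and -0.57 (SE 0.41, adjusted p = 0.655) over the 6. For Ilp8 it was -0.91 (SE 0.72, edgeR adjusted p = 0.471) over all libraries and 1.76 (SE 0.61, edgeR adjusted p = 0.458) over the 6. Neither passed, and in both genes the sign turned when the chorion-poor libraries were left out. Both genes were chosen with null heterozygote replicates 1 and 3 beyond every mutant library, and the fit over the 6 has replicate 2 alone in that group. The turn is thus not independent of the choice.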

How the data were processed

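Per the labels' protocols, ovary RNA was isolated with TRIzol, made into libraries with a stranded TruSeq mRNA kit that selects polyadenylated RNA, and sequenced on an Illumina HiSeq. Tools in the submitters' processing notes are FastQC, HTSeq, HISAT2 2.0.4, Trimmomatic 0.36 and SAMtools 0.1.19, with the build BDGP6. Strand setting, annotation release and treatment of reads with several hits remain not given in the sources used here, so values of overlapping or near-identical genes are uncertain. The authors deposited raw read counts per gene, 1 file per library, for 17558 gene identifiers. Of these, 17252 matched an Ensembl annotation of BDGP6.54, which gave symbols and coordinates. The other 306, with 4.997% of counts, are not named, and those that passed the count filter were tested.

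Fits used edgeR 4.0.16 in R 4.3.3: filterByExpr (minimum count 10, minimum total 15) kept 8642 genes, 8633 without the chorion genes, and libraries were scaled by TMM. The split was fitted with genotype and chorion class as terms and read without a test. Genotypes were tested by the quasi-likelihood test with 1 coefficient per genotype, adjusted over all genes tested, and SE is log2 fold change over the root of F. Named genes were the 20 lowest and 12 highest differences among genes with a symbol, a mean of at least 1 CPM and no overlap between classes, the chorion genes, up to 4 members of largest difference per list, Moe and the genes nearest each threshold; further list members are named where counts of the list turn on them. Members and gene lists were chosen with earlier results of these data known. Replicates differed from each other beyond counting noise (chi-square per degree of freedom 17.7 or more), so each library counts once. Replicate numbers did not pair the samples: the correlations of same-numbered deviations ran from -0.45 to 0.48. Scripts were tested on simulated data with known differences. Alternatives included DESeq2 1.42.0, other scalings and filters, other folds, no genotype term, the chorion share as a covariate, the replicate block, leaving out libraries, and, chosen after seeing the data, a chorion share threshold of 1%.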

Additional observations from a re-analysis of the deposited data

How the results depend on the processing

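The count of 448 lower genes came to 208 with a filter at a mean of 5 CPM, 734 at a fold of 1.5, 99 at a fold of 4 and 296 to 763 when single libraries were left out (296 without null heterozygote replicate 2, 763 without NES heterozygote replicate 1). The 27 higher genes came to 83 with a chorion threshold of 1% (614 lower), 8 with the 5 CPM filter, 45 without a filter, 160 at a fold of 1.5, 8 at a fold of 4 and 14 to 112 without single libraries (14 without null heterozygote replicate 2, 112 and 56 without NES heterozygote replicates 1 and 3). Filters and folds change these counts by construction; elsewhere the cause was not tested. Other scalings, DESeq2 and no genotype term gave 389 to 488 lower and 27 to 32 higher genes.

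Genes called between genotypes numbered 551 by DESeq2, 840 with the chorion share as a covariate, 19 without chorion-poor libraries and 26 to 3670 without single libraries for mutant against null heterozygote (108), the cause of which was not tested. The same alternatives gave 345, 1497, 61 and 28 to 259 for mutant against NES heterozygote (84), and 340, 2762, 19 and 35 to 732 for NES against null heterozygote (72).

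With the replicate block the split gave 496 lower and 32 higher genes, and the genotype comparisons gave 59, 34 and 38 calls. Whether replicate numbers mark a shared batch is not known, so these counts are not read as a weaker effect.

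Of 24 lists with enough genes tested, 21 had a negative median, among them the chorion genes, whose sum set the classes. The count was 19 to 21 under the alternatives (19 with the 5 CPM filter, which left 2 lists without a member) and 20 to 21 without single libraries. The heat shock median turned to 0.0503 without the genotype term and to 0.0255 with the replicate block, and the fat body median to 0.0028 without null heterozygote replicate 2 (-0.9809 without NES heterozygote replicate 1). The other comparisons with the main fit were counted once per value and alternative. Of these, 375 for list medians and 1949 for gene differences stayed within the spread between heterozygotes, and 52 and 182 moved further. That allowance grows with the gap between the heterozygotes, so staying within it does not show that a size is stable. Promoter motifs were not run, since no sequence was at hand. Low counts limit the sizes of Osi19 and Ace, with 0.0527 and 0.0264 CPM in null heterozygote replicate 1.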

Other observations

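Antimicrobial peptide genes, induced by infection, were at low levels in all libraries, and null heterozygote replicate 2 held the most. The list summed to 2.82 and 2.94 CPM in null heterozygote replicates 1 and 3 and 3.85 CPM in NES heterozygote replicate 1. Chorion-rich libraries held 4.47 to 13.2 CPM, with the highest in null heterozygote replicate 2. Def, which encodes a defensin, was at 5.26 CPM in null heterozygote replicate 2, 2.13 CPM in mutant replicate 1 and under 1 CPM in the others. Of the 4 members tested, 1 lay below the chorion-rich libraries (18.1% of all genes did), Dro, by -0.85, and 3 overlapped.

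The germarium gene bam, which starts germline differentiation, overlapped between classes with a log2 difference of 0.62. It was at 43.4, 49.1 and 75.6 CPM in the chorion-poor libraries and at 23.7 to 65.3 CPM (median 32.5) in the chorion-rich ones, and all 3 NES heterozygote libraries (75.6, 65.3 and 58.4 CPM) lay above all others. The NES against null heterozygote log2 fold change of bam was 0.78 (SE 0.23, edgeR adjusted p = 0.243) over all 9 libraries, which did not pass, and 1.37 (SE 0.12, edgeR adjusted p = 0.0143) over the 6 chorion-rich ones. That second fit has 1 null heterozygote library, replicate 2, assumed to vary like the others, so its p does not rest on replicates of that group.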
